A study of Mus musculus with 6 samples.

Results

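The genes described here encode the initiation and elongation factors of translation, and they were followed in ribosome-bound RNA of mouse skeletal muscle after estradiol (E2) or vehicle. Members were taken by symbol from the table of gene counts. They are all genes whose symbol starts with Eif or Eef followed directly by a digit, without the Y-linked Eif2s3y and without pseudogene symbols, together with Pabpc1, Pabpc4, Naca and Btf3. This gave 66 members of 24062 genes. Of these, 65 had a count in at least 1 library and 21 had enough counts to be tested. One member, Eif3i, was higher in ribosome-bound RNA with E2 at an adjusted p below 0.05 by edgeR, beside 2.5% of all genes tested. No member was lower at that threshold, beside 2.97% of all genes tested. The libraries hold ribosome-bound RNA only, so more mRNA and more translation of each mRNA cannot be told apart.

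Translation begins when eIF2 brings the initiator tRNA to the small ribosomal subunit. The large eIF3 complex holds this subunit in place, and the eIF4 factors recruit it to the capped end of the mRNA. The subunit then scans to the start codon, where eIF5B joins the large subunit. During elongation eEF1A delivers each aminoacyl-tRNA, the eEF1B subunits recharge eEF1A with GTP, and eEF2 moves the ribosome along. Muscle fibers and neurons are known to use the eEF1A paralog encoded by Eef1a2, whereas most other cells use Eef1a1.

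In GFP-L10a EC mice a Cre driven by the VE-cadherin promoter turns on a GFP-tagged ribosomal protein L10a in endothelial cells, and anti-GFP antibody then retrieves tagged ribosomes with their RNA (TRAPseq). All mice carried the conditional CAG-EGFP/Rpl10a; birA allele at the ROSA26 locus, on a background that the labels write as B6.129S4. The paper describes them as ovariectomized females. They received placebo pellets (vehicle) or 17β-estradiol pellets (E2) for 4 weeks, and RNA came from gastrocnemius and soleus. Per the labels the mice were 4 weeks old. An older age at ovariectomy is stated in the paper. There were 3 vehicle and 3 E2 libraries, each labelled with the numbers of 2 mice. The sources used here do not say whether those mice were pooled. The paper gives more biological replicates per group than there are libraries, so p-values measure only the spread between libraries. A permutation test of 3 against 3 libraries cannot go below p = 0.1, and single members were therefore tested within a fit across all genes.

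The libraries were shallow, with total counts from 84823 in vehicle 3 to 451034 in vehicle 2. In CPM, the counts of a gene scaled to a common total for each library, 1 count was worth 11.8 CPM in vehicle 3 and 2.22 CPM in vehicle 2, and a count of 0 allowed up to 35.4 and 6.65 CPM. Member genes took 0.385% to 0.584% of the counts of a library. Markers of skeletal muscle fibers summed to between 61440 and 93959 CPM in every library, whereas the 12 endothelial markers summed to 259 to 840 CPM in vehicle and 143 to 632 CPM in E2 libraries. Cdh5 and Kdr had the most counts of these. Of the endothelial markers tested, Cdh5 was at a log2 fold change of 0.13, Egfl7 at -0.80 and Kdr at -2.22 (adjusted p = 0.0764 by edgeR). The groups overlapped for each. Within the muscle list the groups did not overlap for the troponin gene Tnnc2, higher with E2 (log2 fold change 1.35), or for Myh2, Myh4, Tnnt3, Tnni2 and Ttn, lower with E2 (-0.51 to -1.19), and they overlapped for the actin gene Acta1 (1.80). None of these 7 passed an adjusted p below 0.05 (0.0572 to 0.477 by edgeR), and their part in the results was not tested. In bulk RNA, fewer cells of a type and less RNA per cell cannot be told apart. Pancreatic acinar markers summed to 381 and 353 CPM in vehicle 1 and 2 and to 4.97 to 23.8 CPM in the other libraries. Smooth muscle and pericyte markers summed to 675, 468 and 118 CPM in vehicle and 230, 212 and 229 CPM in E2 libraries. Adipocyte markers summed to 121, 173 and 94.3 CPM in vehicle and 47.6, 70.5 and 84.6 CPM in E2 libraries, without overlap. The sums of fibroblast, immune and squamous epithelium markers overlapped. The part of these differences in the results was not tested.

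Vehicle 1 and 2 went against the female sex given for the mice. Eif2s3y, the Y-linked copy of the gene for the eIF2 gamma subunit, had 29 counts in vehicle 1, 57 in vehicle 2 and 0 in each of the other libraries. The X-linked member Eif2s3x had 4, 6 and 0 counts in vehicle 1 to 3, and 1, 9 and 7 counts in E2 1 to 3. With 27 counts over all libraries it was not tested here. The paper lists Eif2s3x among genes raised by E2 whose proteins were recruited to the estrogen receptor ERα, at an unadjusted threshold. The coding sequences of both copies were 86.33% identical over 1419 aligned bases, with a longest identical run of 34 bases, so reads of one copy can be told from those of the other at many positions. The first 60 coding bases of each copy (GENCODE M21, mm10) are shown because this pair separates the libraries, with capitals at the 13 positions where they differ. Eif2s3x lies on the minus strand of chrX:94188707-94212862 and Eif2s3y on the plus strand of chrY:1010543-1028847.
Eif2s3x: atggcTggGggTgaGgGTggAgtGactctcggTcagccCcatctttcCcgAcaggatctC
Eif2s3y: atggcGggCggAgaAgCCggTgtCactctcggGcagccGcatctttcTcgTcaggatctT

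Across the 21 members tested with edgeR's quasi-likelihood test, 1 was higher with E2 at an adjusted p below 0.05, beside 2.5% of all 1682 genes tested. None was lower, beside 2.97% of all genes, and 5.47% of all genes were called in either direction. At an unadjusted p of 0.05 or less, 3 members were higher (Eif3i, Eef1a1 and Naca), beside 10.5% of all genes. Another 3 were lower (Eef1b2, Eif3c and Eif3a), beside 15.1% of all genes. The groups did not overlap in CPM for 3 members that were higher with E2 (Eif3i, Btf3 and Naca), beside 8.68% of all genes, and for 3 that were lower (Eef1b2, Eif4b and Eif4g1), beside 12.8%. The median log2 fold change was -0.07 over the members tested and 0.01 over all genes tested. It was below 0 for 61.9% of the members tested and for 49.7% of all genes tested. The 45 members that were not tested had at most 61 counts over the 6 libraries.

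**Figure D1:**
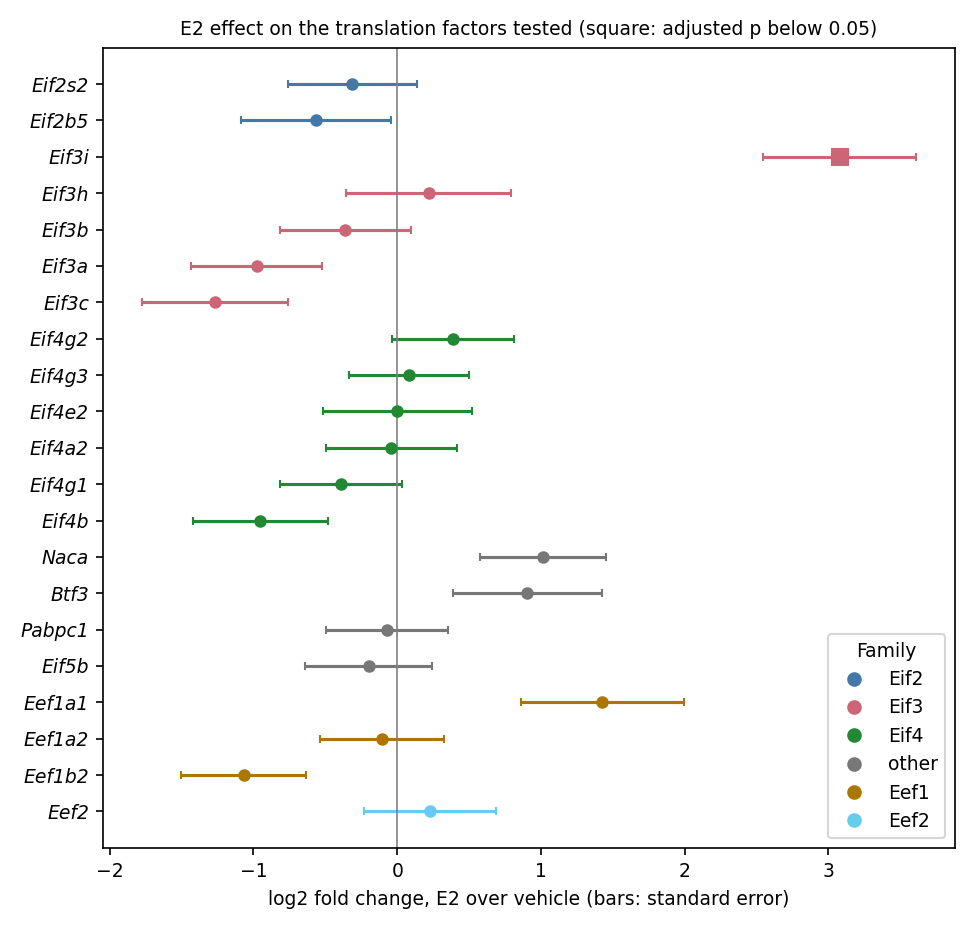
The log2 fold change of E2 over vehicle is plotted for each of the 21 members tested, with bars for 1 standard error from edgeR's quasi-likelihood test. Eif3i, at 3.08, stands apart from the other members, which lie between -1.27 and 1.43.

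Eif3i encodes a WD-repeat subunit of eIF3 that sits beside eIF3b and eIF3g in the complex. It lies on the minus strand of chr4:129591960-129600648 (mm10), and no exon of another annotated gene shares 50 or more bases with its exons. Its level was 13.8, 20.0 and 11.8 CPM in vehicle 1 to 3, from 4, 9 and 1 counts. In E2 1 to 3 it was 79.4, 121 and 174 CPM, from 10, 24 and 35 counts. Every E2 library was above every vehicle library. The log2 fold change was 3.08 (SE 0.53, adjusted p = 0.00579 in the edgeR fit, adjusted by Benjamini-Hochberg over all genes tested). Eif3i passed the filter for testing only through the E2 libraries, where it was high, since its vehicle levels were too low for it. With no filter its log2 fold change was 2.94 (SE 0.63, adjusted p = 0.00126 by edgeR). The single count of vehicle 3 has an exact 95% Poisson interval of 0.298 to 65.7 CPM, and the lower bound of E2 1 is 38.1 CPM, so these 2 libraries overlap within counting error. With only vehicle 3 left as the vehicle group, the log2 fold change of Eif3i was 3.47 (SE 1.07) and its adjusted p was 0.144.

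None of the other 4 eIF3 subunits tested was called, beside 5.47% of all genes tested. Eif3a, the scaffold on which much of the complex is built, had 301, 306 and 130 CPM in vehicle 1 to 3 and 103, 131 and 114 CPM in E2 1 to 3. Its log2 fold change was -0.98 (SE 0.45, adjusted p = 0.181 by edgeR). Vehicle 3 lay among the E2 libraries, and vehicle 1 and 2 were above them. Eif3c, which joins eIF3a in the core, had 170, 115 and 47.2 CPM in vehicle and 23.8, 50.4 and 54.7 CPM in E2 libraries, with a log2 fold change of -1.27 (SE 0.51, adjusted p = 0.129 by edgeR). Here too vehicle 3 lay within the range of the E2 libraries. Without both vehicle libraries that hold Y-linked transcripts, the log2 fold change of Eif3a was -0.05 and that of Eif3c was not computed because it no longer passed the filter.

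Eif3b encodes the other large scaffold of the complex. It had 332, 266 and 177 CPM in vehicle and 270.0, 166 and 134 CPM in E2 libraries, and the groups overlapped (log2 fold change -0.36, adjusted p = 0.662 by edgeR). Eif3h, another subunit of the complex, ran from 35.4 to 55.4 CPM in vehicle and from 15.9 to 116 CPM in E2 libraries (log2 fold change 0.22, adjusted p = 0.836, and -0.84 without E2 2). The remaining 9 eIF3 genes were not tested and had 7 to 41 counts over all libraries. Among these, Eif3e had 17.3, 24.4 and 23.6 CPM in vehicle and 7.94, 10.1 and 0 CPM in E2 libraries, from 5, 11 and 2 counts and from 1, 2 and 0 counts, without overlap. Eif3j1 and Eif3j2 had the same count in each of the 6 libraries. Their coding sequences are identical over all 786 aligned bases, so the counts of these genes cannot be told apart and they were taken once in the share below.

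Within eIF3, Eif3i took a larger share of the counts in each E2 library than in any vehicle library. It made up 1.41%, 2.26% and 2.44% of the eIF3 counts in vehicle 1 to 3 and 14.1%, 17.6% and 26.1% in E2 1 to 3. The 95% Wilson interval was 0.432% to 12.6% in vehicle 3, which rests on 41 eIF3 counts, and 7.83% to 24.0% in E2 1, and these overlap. With Eif3j1 and Eif3j2 again taken once, the eIF3 genes without Eif3i summed to 969, 865 and 472 CPM in vehicle and 484, 564 and 493 CPM in E2 libraries. Vehicle 3 was the lowest of the 6 libraries in this sum, and vehicle 1 and 2 were the highest. Divided by the length of the principal transcript, Eif3i stood at 12.3, 17.8 and 10.5 CPM per kilobase in vehicle and at 70.7, 108 and 155 CPM per kilobase in E2 libraries. On that scale it ranked 8, 6 and 8 among the 14 eIF3 genes in vehicle 1 to 3 and 2, 1 and 1 in E2 1 to 3. The rank is set by the transcript chosen for each gene and is given as a description.

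**Figure D2:**
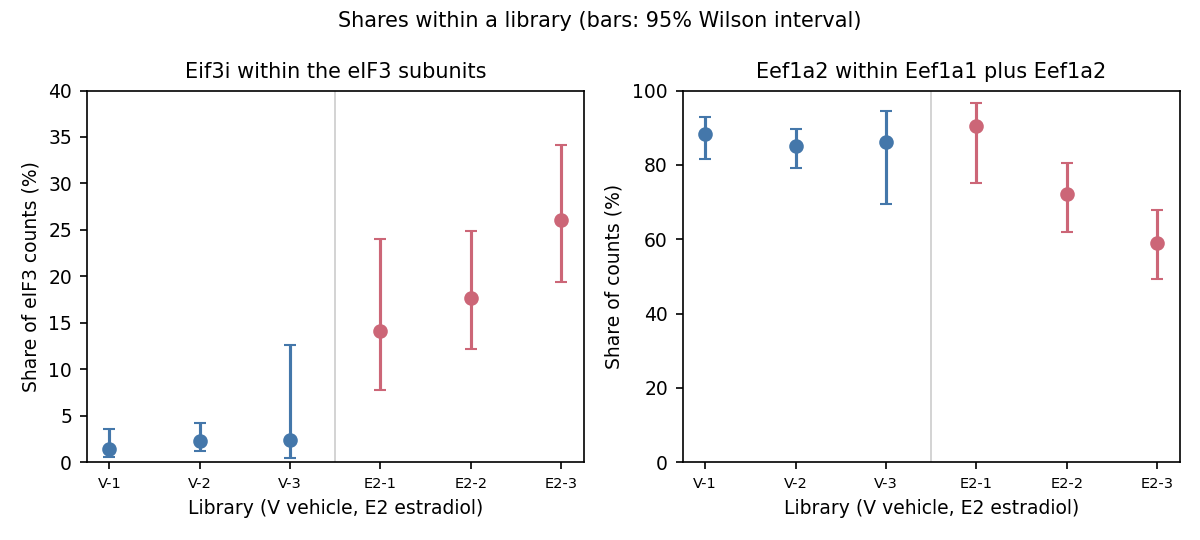
The share of Eif3i among the eIF3 counts and the share of Eef1a2 among the counts of Eef1a1 and Eef1a2 are plotted in percent for each library, with 95% Wilson intervals that cover counting error only. The Eif3i share is at most 2.44% in the vehicle libraries and at least 14.1% in the E2 libraries, whereas the Eef1a2 share of E2 1, at 90.3%, lies above the vehicle libraries and those of E2 2 and 3 lie below them.

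The eIF2 group has 14 members, of which 2 were tested. Eif2s2, the beta subunit of eIF2, had 405, 410.2 and 189 CPM in vehicle and 214, 343 and 204 CPM in E2 libraries, and the groups overlapped (log2 fold change -0.31, adjusted p = 0.705 by edgeR). Eif2b5 encodes the catalytic subunit of eIF2B, the exchange factor that recharges eIF2 with GTP. It had 138, 102 and 23.6 CPM in vehicle and 55.6, 40.3 and 79.6 CPM in E2 libraries (log2 fold change -0.57, adjusted p = 0.521). Vehicle 3 was the lowest of the 6 libraries for both genes. Eif2b2, another eIF2B subunit, was not tested. It had 31.2, 17.7 and 11.8 CPM in vehicle and 39.7, 60.4 and 79.6 CPM in E2 libraries, from 9, 8 and 1 counts and from 5, 12 and 16 counts, and the groups did not overlap. The 4 eIF2 alpha kinases Eif2ak1 to Eif2ak4, which halt initiation under stress, had 14 to 18 counts each over all libraries and did not pass the filter. Eif2s1, the alpha subunit on which these kinases act, had 14 counts.

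Of 16 eIF4 members, 6 were tested and none differed at an adjusted p below 0.05, beside 5.47% of all genes tested. Eif4g1, the scaffold that links the cap-binding protein to the small subunit, had 284, 348 and 236 CPM in vehicle and 183, 212 and 209 CPM in E2 libraries. Each E2 library was below each vehicle library, with a log2 fold change of -0.39 (adjusted p = 0.601 by edgeR), and the groups overlapped when Rn45s, the ribosomal RNA precursor that took 28.5% to 42.9% of the counts, was left out of the library totals. Eif4g3, a second eIF4G, had 156, 186 and 165 CPM in vehicle and 183, 171 and 139 CPM in E2 libraries, and the groups overlapped (log2 fold change 0.08, adjusted p = 0.919). Eif4g2, a relative that lacks the cap-binding arm, differed by 0.39 on the log2 scale (adjusted p = 0.601). Eif4b, a cofactor of the eIF4A helicase, had 152, 159.6 and 106 CPM in vehicle and 23.8, 95.7 and 74.6 CPM in E2 libraries (log2 fold change -0.95, SE 0.47, adjusted p = 0.210 by edgeR). The groups did not overlap, by a gap from vehicle 3 to E2 2 that is less than 1 count of vehicle 3. Eif4a2, one of the helicases, differed by -0.04 on the log2 scale, and Eif4e2, a cap-binding protein known for repressing translation, by less than 0.01. The 10 eIF4 members that were not tested had at most 44 counts, among them the cap-binding protein Eif4e with 23 counts. Eif4e1b had no count in any library.

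Eif5b, the factor for joining of the subunits, had 364, 388 and 589 CPM in vehicle and 397, 398 and 274 CPM in E2 libraries, and these overlapped (log2 fold change -0.20, adjusted p = 0.803 by edgeR). Its exons share 1643 bases with those of Rev1 on the opposite strand, and the sources used here do not say whether the counting used strand. Eif6, which keeps the ribosomal subunits apart until the large one is mature, was not tested. It had 15, 21 and 0 counts in vehicle 1 to 3 and 1, 0 and 1 counts in E2 1 to 3. The 0 of vehicle 3 allows up to 35.4 CPM, and its exact 95% Poisson interval, up to 43.5 CPM, overlaps those of vehicle 1 and 2, which start at 29.1 and 28.8 CPM. Eif1, which helps to select the start codon, had 6.92, 8.87 and 0 CPM in vehicle and 15.9, 40.3 and 14.9 CPM in E2 libraries, from 2, 4 and 0 counts and from 2, 8 and 3 counts. The groups did not overlap, but the 0 of vehicle 3 allows more CPM than E2 1 and 3 had. Eif1a had 1, 3 and 3 counts in vehicle and 0 in each E2 library, which allows up to 14.9 to 23.8 CPM there.

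**Figure D3:**
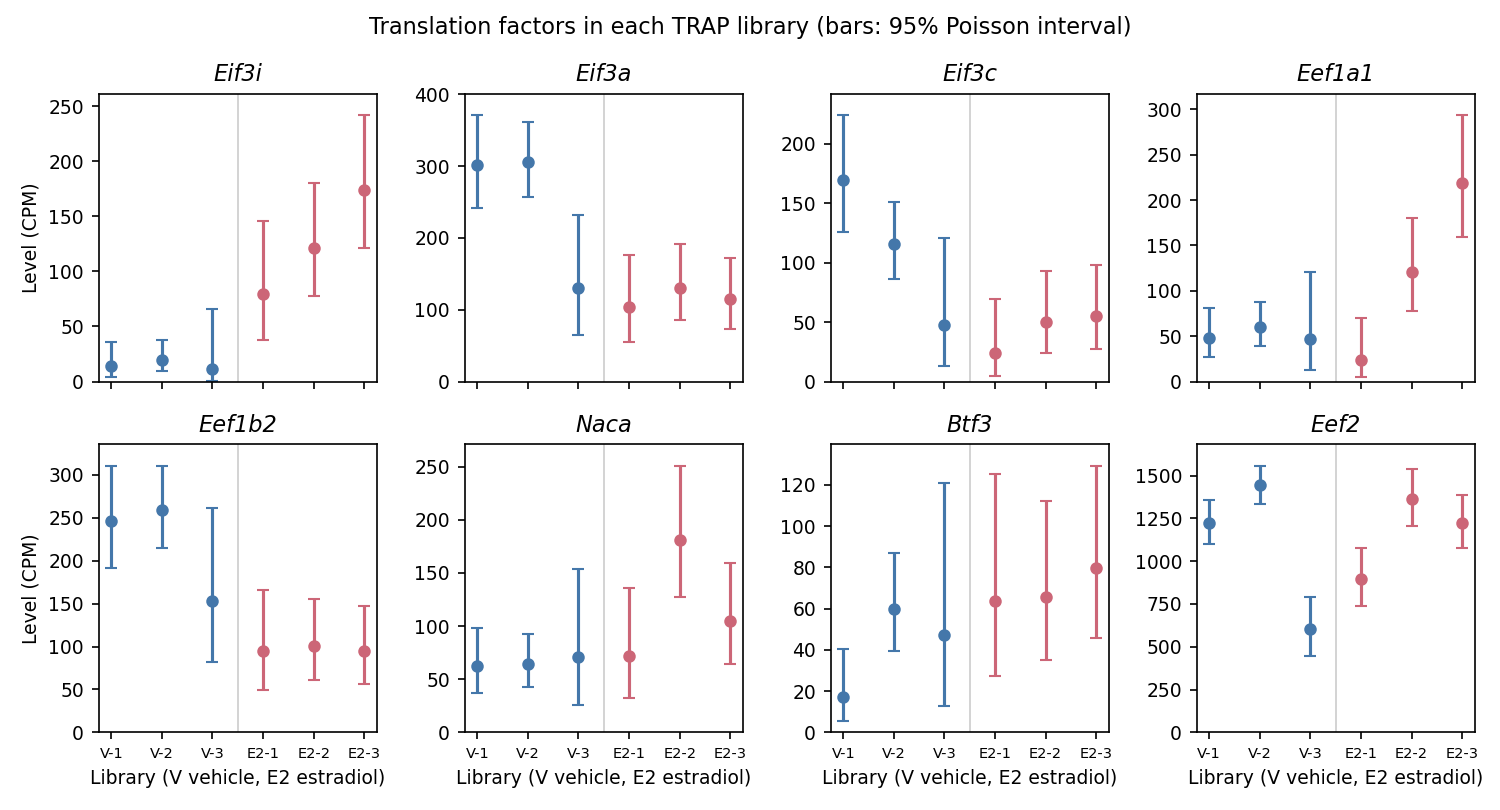
The level of selected members is plotted in CPM for each library, with exact 95% Poisson intervals that cover counting error only. Eif3i lies between 11.8 and 20.0 CPM in vehicle and between 79.4 and 174 CPM in E2 libraries, and vehicle 3 lies among the E2 libraries for Eif3a and Eif3c.

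Among elongation factors, Eef1a1 and Eef1a2 differed in their spread over libraries. Eef1a1 had 48.5, 59.9 and 47.2 CPM in vehicle and 23.8, 121 and 219 CPM in E2 libraries. E2 2 and 3 were above the vehicle libraries and E2 1 was below them, and the log2 fold change of 1.43 (SE 0.57) had an adjusted p of 0.127 by edgeR. Without E2 3 the log2 fold change of Eef1a1 was 0.65. Eef1a2 had 370.5, 341 and 295 CPM in vehicle and 222, 312 and 313 CPM in E2 libraries (log2 fold change -0.11, adjusted p = 0.896). Eef1a2 took 88.4%, 85.1% and 86.2% of the counts of both paralogs in vehicle and 90.3%, 72.1% and 58.9% in E2 1 to 3. E2 1, with 31 counts, had a 95% Wilson interval of 75.1% to 96.7%. Muscle fiber markers, which come from the cells that use Eef1a2, summed to 65488, 79038 and 61440 CPM in E2 1 to 3. Endothelial markers summed to 143, 358 and 632 CPM in E2 1 to 3, the order of Eef1a1 in these libraries, and to 772, 840.3 and 259 CPM in vehicle 1 to 3. The part of either cell type in this share was not tested.

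The coding sequences of Eef1a1 and Eef1a2 were 80.13% identical over 1389 aligned bases, with a longest identical run of 23 bases. Their first 60 coding bases (GENCODE M21, mm10) are shown because the share depends on telling these paralogs apart, with capitals at the 11 positions where they differ. Eef1a1 lies on the minus strand of chr9:78478449-78489151 and Eef1a2 on the minus strand of chr2:181147653-181157014.
Eef1a1: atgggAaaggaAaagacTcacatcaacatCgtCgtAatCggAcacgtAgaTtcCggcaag
Eef1a2: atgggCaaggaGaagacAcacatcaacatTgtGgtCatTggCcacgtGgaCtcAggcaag

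Eef1b2, a nucleotide exchange subunit for eEF1A, had 246, 259 and 153 CPM in vehicle and 95.3, 101 and 94.5 CPM in E2 libraries. Each E2 library was below each vehicle library, with a log2 fold change of -1.07 (SE 0.44, adjusted p = 0.131 by edgeR). Its exons share 176 bases with another annotated gene on the same strand. The other exchange subunits were not tested. Eef1d had 48.5, 28.8 and 47.2 CPM in vehicle and 31.8, 50.4 and 39.8 CPM in E2 libraries. Eef1g had 38.1, 39.9 and 70.7 CPM in vehicle and 71.5, 45.3 and 39.8 CPM in E2 libraries. The groups overlapped for both, and of the 3 exchange subunits only Eef1b2 had separate groups. Summed with it, the 3 subunits had 332, 328 and 271 CPM in vehicle and 199, 196 and 174 CPM in E2 libraries. The groups did not overlap in this sum, which was not tested. Eef2, the translocase and the most abundant member in counts, had 1226, 1443 and 601 CPM in vehicle and 897, 1365 and 1224 CPM in E2 libraries, and the groups overlapped (log2 fold change 0.23, adjusted p = 0.788). Without both vehicle libraries that hold Y-linked transcripts its log2 fold change was 1.06 (adjusted p = 0.507 by edgeR). Eef2k, the kinase that inhibits eEF2, was not tested and had 16, 28 and 1 counts in vehicle and 4, 3 and 1 counts in E2 libraries.

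Naca and Btf3 encode both subunits of the nascent polypeptide-associated complex, which binds new chains at the ribosome. Naca had 62.3, 64.3 and 70.7 CPM in vehicle and 71.5, 181 and 104 CPM in E2 libraries, with a log2 fold change of 1.01 (SE 0.44, adjusted p = 0.152 by edgeR). The groups were parted only by the gap from vehicle 3 to E2 1, which is less than 1 count of either library. Btf3 had 17.3, 59.9 and 47.2 CPM in vehicle and 63.5, 65.5 and 79.6 CPM in E2 libraries (log2 fold change 0.91, SE 0.52, adjusted p = 0.275). The groups were parted by the gap from vehicle 2 to E2 1, less than 1 count of E2 1, and its exons share 382 bases with a gene on the opposite strand. Pabpc1, the main poly(A)-binding protein, differed by -0.07 on the log2 scale (adjusted p = 0.930), and Pabpc4 had 15 counts and was not tested.

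By symbol family, the summed levels of the groups overlapped in each case. These families are not single complexes, since Eif2 pools eIF2, eIF2B and the eIF2 alpha kinases. Summed by role instead, the groups did not overlap for the eEF1A exchange subunits, eIF4A cofactors, eIF4G scaffolds and eIF4E inhibitors, lower with E2. The nascent polypeptide-associated complex was higher, also without overlap, and the other roles overlapped. None of these sums was tested. The 14 Eif2 genes summed to 709.7, 694 and 330.1 CPM in vehicle and 492, 609 and 497 CPM in E2 libraries. The 14 Eif3 genes summed to 1014, 905 and 531 CPM in vehicle and 596, 720.3 and 706 CPM in E2 libraries, with Eif3j1 and Eif3j2 both counted, and the groups also overlapped with the pair taken once. The 16 Eif4 genes summed to 983, 1195 and 943 CPM in vehicle and 691, 1078 and 841 CPM in E2 libraries. Vehicle 3 was the lowest of the 6 libraries for Eif2 and Eif3, and E2 1 was the lowest for Eif4. The 6 Eef1 genes summed to 751, 734 and 613 CPM in vehicle and 445, 629.6 and 706 CPM in E2 libraries. The sum of Eef2 and Eef2k was 1281, 1505 and 613 CPM in vehicle and 929, 1380.1 and 1229 CPM in E2 libraries. E2 1 was the lowest library for Eef1 and vehicle 3 for Eef2, and these are the 2 libraries with the fewest counts.

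**Figure D4:**
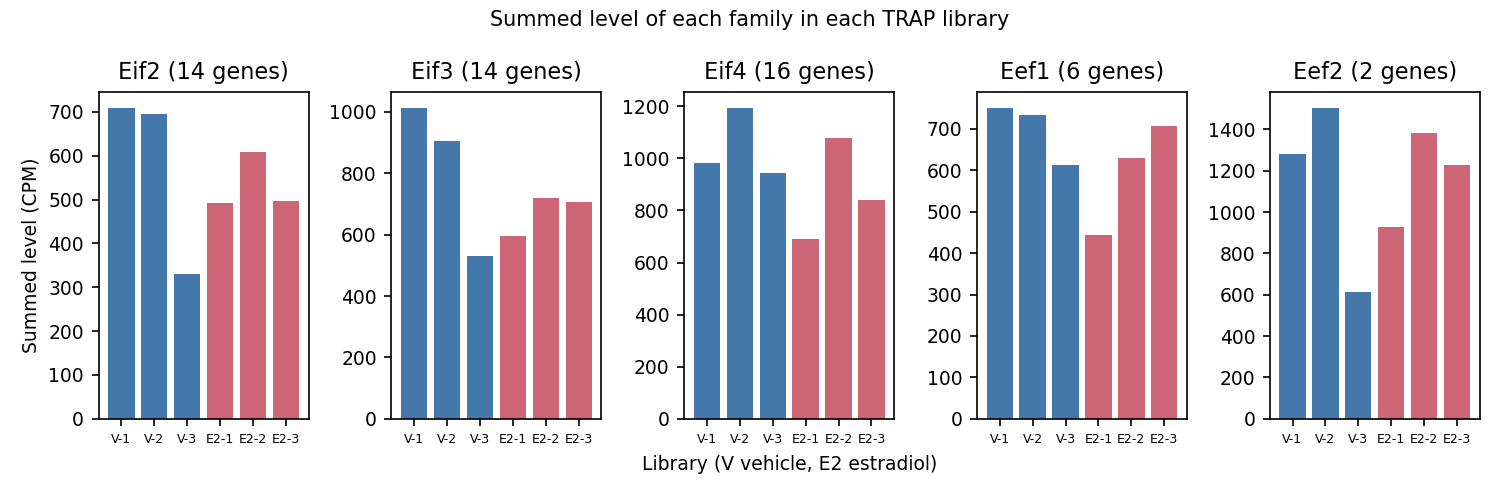
The summed level of each family is plotted in CPM for each library, with 1 bar per library. The bars of both groups overlap in each of the 5 families.

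The calls on members depended on vehicle 3. Without it, 4 members were higher (Naca, Eif2b2, Eif3i and Eef1a1) and 5 lower (Eef1b2, Eif4b, Eif3a, Eef2k and Eif3c) at an adjusted p below 0.05 by edgeR, beside 22.1% and 24.3% of all genes tested. The vehicle group then held only the libraries with Y-linked transcripts. Eif3i was the one member called with each of the 6 libraries left out in turn, with a log2 fold change from 2.72 to 3.40 and an adjusted p from 3.66e-05 to 0.0468.

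Of 57 other genes in the table that act on translation, for termination, helicases, cap and poly(A) regulators, mTORC1 signaling, stress response and tRNA synthetases, 11 were tested and 1 was called, beside the 5.47% of all genes called in either direction. Rps6, a protein of the small subunit and a target of S6 kinase, had 19, 43 and 8 counts in vehicle and 23, 56 and 58 counts in E2 libraries. Its level in CPM was higher in each E2 library than in each vehicle library, and it rose by a log2 fold change of 1.73 (SE 0.45, adjusted p = 0.0376 by edgeR). It was 1 of 8 ribosomal protein genes called higher among 45 tested (Rpl27, Rpl28, Rpl6, Rpl8, Rps26, Rps4x, Rps6 and Rps7), and 1 was called lower (Rplp2), beside 2.5% and 2.97% of all genes, a count made after the call on Rps6 was seen. The others of the 11 were not called, among them the helicase Ddx3x at -0.71, Abcf1 at -0.96, the cap regulator Larp1 at -0.81 and Ddit3 of the stress response at 0.92.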

How the data were processed

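TRAP RNA of 3 vehicle and 3 E2 libraries was analysed, grouped by the labels. Per the submitters' processing notes the authors used bcl2fastq (2.17), FastQC (0.11.2), STAR (2.5.3a), mm10 and featureCounts of Subread (1.6.0), and the deposited values are whole-number counts per gene symbol without normalization. The sources used here do not state the strand setting or the treatment of reads with several matches. The labels name a stranded total RNA kit and the paper a ribosome profiling kit.

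From these counts, E2 was compared with vehicle over all genes with edgeR (4.0.16) in R (4.3.3), using filterByExpr, TMM scaling, the quasi-likelihood test and Benjamini-Hochberg adjustment over 1682 genes. Standard errors were derived from the fold change and the F statistic. The unadjusted threshold also asked for an average log2 CPM of 0 or more. Sums, shares and ranks were not tested. Intervals are 95% Poisson or Wilson intervals, and a count of 0 was taken to allow 3 counts. They cover counting error only. Positions, lengths and coding sequences came from GENCODE M21 (mm10), and coding sequences were aligned with Biopython (1.88).

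The members and lists were chosen with earlier results of these data known. Values in all 6 libraries were to be given for members with an unadjusted p of 0.05 or less and for the 2 members with the most counts in each family summed above. Eif4b, Eif2b2, Eif2s3x, Eif6, Eif3e, Eif1, Eif1a, Eef1d, Eef1g, Btf3 and Eif5b, and the genes named beyond the members, were singled out after their values were seen. The replicate numbers were not used as pairs in the main test. The correlations of same-numbered libraries in their deviations from the group means were -0.13, 0.02 and -0.21. Those of differently numbered libraries ran from -0.22 to 0.20. With 3 libraries per group of unequal depth, these values cannot show whether the numbers link vehicle and E2 libraries.

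Alternatives were other scalings, a filter of at least 10 counts in every library or none, DESeq2 (1.42.0), limma-voom (limma 3.58.1), the likelihood ratio and exact tests of edgeR, a replicate block, leaving out each library in turn, and leaving out both vehicle libraries with Y-linked transcripts. Leaving out vehicle 3 and E2 1 together was added after the data were seen.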

Additional observations from a re-analysis of the deposited data

How the results depend on the processing

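Eif3i kept its direction in all 17 alternatives in which it was tested and an adjusted p below 0.05 in 16. The exception left vehicle 3 alone, where its spread is assumed to equal that of the E2 libraries. With a replicate block its log2 fold change was 2.88 and its adjusted p 0.0303. The limits are the depth, vehicle 3 above all, and the 2 vehicle libraries with Y-linked transcripts. Scaling by library totals moved the median of all genes to -0.15 on the log2 scale and the calls over all genes from 42 higher and 50 lower to 33 and 90.

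Without a filter, 1 member was lower at an adjusted p below 0.05 (Eif6, beside 0.939% of all genes) and 6 at the unadjusted threshold of 0.05 (6.81% of all genes). With at least 10 counts in every library, Eif3i was not tested, and 0 of 10 members were higher at either threshold, beside 1.9% (adjusted) and 11.9% (unadjusted) of all genes. With the replicate block, 1 member was higher and 0 were lower at an unadjusted p of 0.05 or less, beside 7.67% and 10.1% of all genes. Without both vehicle libraries with Y-linked transcripts, 0 members were higher at an adjusted p below 0.05, where the adjusted p of Eif3i was 0.144, and 0 were lower at an unadjusted p of 0.05 or less, beside 0.315% and 2.88% of all genes. Without vehicle 3 and E2 1 together, 4 members were higher and 5 lower at an adjusted p below 0.05, and 5 and 6 at the unadjusted threshold, beside 19.3%, 19.9%, 23.5% and 24.9% of all genes. Leaving out each library in turn gave 1 to 4 members higher and 0 to 5 lower at an adjusted p below 0.05, and 2 to 5 higher and 0 to 5 lower at the unadjusted threshold, with the highest counts without vehicle 3. Over all genes, the adjusted calls then ran from 0.279% to 22.1% higher and from 0.0956% to 24.3% lower, and the unadjusted ones from 5.05% to 25.9% and from 8.2% to 27.6%, again highest without vehicle 3. The cause was not tested.

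Members that were not called changed sign as follows in log2 fold change. Without both vehicle libraries with Y-linked transcripts, Eef1a2 was at 0.061, Eif2b5 at 1.41, Eif2s2 at 0.52, Eif3b at 0.17, Eif4a2 at 0.84 and Eif4e2 at 0.19. Without vehicle 3 and E2 1, Eef1a2 was at 0.13, Eif4a2 at 0.14, Eif4e2 at 0.37, Eif5b at 0.14 and Pabpc1 at 0.027. Eif4e2 was at 0.0017 with edgeR's exact and likelihood ratio tests. With at least 10 counts in every library, Eef2 was at -0.023 and Eif4g3 at -0.16, and Eif4g3 was at -0.016 with no filter and at -0.084 with library totals.
Leaving out each library in turn moved Eef1a2 from -0.23 to 0.10, Eif3h from -0.84 to 0.65, Eif4a2 from -0.14 to 0.23, Eif4e2 from -0.23 to 0.32, Eif4g3 from -0.0041 to 0.26, Eif5b from -0.40 to 0.15 and Pabpc1 from -0.29 to 0.10.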
